A study of Mus musculus with 12 samples.

Results

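The proteasome genes were taken as the mouse genes whose symbol starts with Psma, Psmb, Psmc, Psmd, Psme or Psmg, which gave 49 genes of the 24232 named on the array. For a gene with several probes, the one brightest on average over the 12 arrays was used. The reference gene table lists 56 such symbols. Of these, 6 are pseudogenes without a matched probe, and Psme2, which encodes the beta subunit of the PA28 activator, was the 1 coding gene without a probe matched to its own accession. It was read only through Psme2b, a near-identical copy, so the values under that name cannot be assigned to either gene. Psmc3ip and Psme3ip1 meet the spelling but encode proteins that bind a proteasome protein and are not subunits.

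The RNA came from dendritic cells (DCs) grown from the bone marrow of female C57BL/6 mice with GM-CSF and IL-4. In all 4 groups the DCs were stimulated with LPS, a bacterial product that triggers DC maturation, at 1 µg/mL for 24 h. Young DCs came from 2 month old mice given no agent, and Young-Abx DCs from 2 month old mice given a cocktail of antibiotics. Old DCs came from 24 month old mice given no agent, and Old-LP DCs from 24 month old mice given LP, the bacterium Lactobacillus plantarum. These ages are those of the sample labels, and the study's methods give somewhat different ranges. Each of the 12 single-colour Agilent arrays carried RNA of a pool of 3 mice, with 3 arrays for each group, replicates A, B and C. The study's figure legends describe 3 independent sets of such pools, while the labels give only the letters. Values are log2 of the spot intensity after quantile normalization, so 1 unit is a doubling of signal, and levels were compared only between arrays for the same probe.

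The A and B arrays of the 4 groups shared 1 slide, the C arrays of Young and Young-Abx DCs a second one, and the C arrays of Old and Old-LP DCs another. Spots well above background made up 61.2% to 66.4% on the A and B arrays and 37.3% to 46% on the C arrays. Each comparison is therefore given over all 12 arrays and within slide 1. Fits within slide 1 rest on the A and B arrays of each group alone. Their intervals and p-values therefore reflect the spread between A and B and leave out the distance to C. The dendritic cell markers were present. Of 9 such genes, 9 were well above background throughout Young, Young-Abx and Old DCs and 8 throughout Old-LP DCs, with Itgax, which encodes CD11c, between 14.09 and 14.8. Markers of macrophages, neutrophils, B cells, T cells, mast cells and megakaryocytes were measured as well. Fewer cells of a type and less RNA per cell cannot be told apart in such bulk samples.

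The proteasome is the protease that degrades proteins tagged with ubiquitin. Its 20S core is a barrel of alpha and beta rings in which Psmb5, Psmb6 and Psmb7 encode the cutting subunits, and its 19S cap, made of ATPases (Psmc genes) and other subunits (Psmd genes), recognises and unfolds the substrate. Interferon, and maturation by LPS, induce Psmb8, Psmb9 and Psmb10, whose products replace the standard cutting subunits to form the immunoproteasome, and Psme1 and Psme2, which encode the PA28 cap. DCs use these particles to make the peptides that the Tap1 and Tap2 transporter delivers to MHC class I.

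The promoters of Psmb8, Psmb9, Psme1 and Psmb5 are shown because the comparison turns on inducible against standard subunits. They are given 5′ to 3′ on the named strand of the mouse assembly GRCm38.p6, from the RefSeq promoter table. Capitals mark matches, on either strand, to the interferon-stimulated element ISRE (GAAA, any 2 bases, GAAA), the interferon-gamma activated site GAS (TTCNNNGAA), the antioxidant response element ARE (TGACNNNGC, bound by the factors that Nfe2l1 and Nfe2l2 encode) and the GC box (GGGCGG). The first is the 225 bases between the start of Psmb9, which lies to the left and is read leftwards, and the start of Tap1, which is read rightwards. The others are the 150 bases before each start. The window of Psmb10, which held none of these motifs, is not printed.
Psmb9 and Tap1, chr17:34187331-34187555, plus strand: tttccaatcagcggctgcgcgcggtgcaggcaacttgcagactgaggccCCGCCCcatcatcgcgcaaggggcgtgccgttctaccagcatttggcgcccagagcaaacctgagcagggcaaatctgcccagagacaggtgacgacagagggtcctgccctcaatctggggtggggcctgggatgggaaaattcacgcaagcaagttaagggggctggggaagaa
Psmb8, chr17:34198045-34198194, plus strand: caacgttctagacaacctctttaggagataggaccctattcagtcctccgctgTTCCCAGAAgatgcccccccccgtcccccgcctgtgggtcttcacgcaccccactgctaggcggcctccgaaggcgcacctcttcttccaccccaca
Psme1, chr14:55578344-55578493, plus strand: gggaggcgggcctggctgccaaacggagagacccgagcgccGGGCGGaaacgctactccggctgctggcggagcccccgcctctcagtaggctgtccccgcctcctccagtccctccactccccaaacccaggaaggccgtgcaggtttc
Psmb5, chr14:54617996-54618145, minus strand: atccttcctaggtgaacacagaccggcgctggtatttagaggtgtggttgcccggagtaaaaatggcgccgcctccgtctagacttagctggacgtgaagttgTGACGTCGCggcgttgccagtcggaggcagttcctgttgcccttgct

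Of the 49 genes, 41 had a promoter window in the table. In the 250 bases before the start, the GC box stood in 22 of 41 proteasome genes (53.7%) against 32.7% of 32851 windows. The ARE stood in 5 (Psmb5, Psmb6, Psmc6, Psmd12 and Psmd9; 12.2%) against 10.2%. GAS stood in Psmb8 and Psmg1 (4.88%) against 7.02%, and the ISRE in Psmb3, Psmd4 and Psmd9 (7.32%) against 2.98%. These are letter matches and not binding sites, and a missing match says only that the letters are not in the window.

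Proteasome transcripts were broadly detected. Well above background on all 12 arrays were 45 of the 49 genes, against 44.2% of all genes, and none was saturated. The exceptions were Psmb11, the thymus subunit, which was not well above background on any array, Psmg2, an assembly chaperone gene (9 arrays), and Psmg4, another one, and Psmc3ip (11 arrays each). The 4 inducible genes that could be read, Psmb8, Psmb9, Psmb10 and Psme1, were well above background on every array.

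No proteasome gene passed the test in any comparison over all 12 arrays without a block. By limma without a block, with a gene called at an adjusted p of at most 0.05 and a log2 difference of at least 0.5, 0 of 49 were called for Old against Young DCs, where 0.904% of all genes were called. For Young-Abx against Young DCs 0 were called with a background of 0.475%, and for Old-LP against Old DCs 0 with 0.512%. For Old-LP against Young DCs and Old against Young-Abx DCs 0 were called with backgrounds of 0% and 0.00413%. At an unadjusted limma p of at most 0.05 the count was also 0 in each comparison, where 6.91%, 4.52%, 6.8%, 0.941% and 1.63% of all genes passed. When the replicate letter was blocked, 1 gene, Psma8, was called in each of the first 3 comparisons (background 3.06%, 1.38% and 2.38%) and 0 in the others. Blocking the slide instead also called Psma8 alone there (3.82%, 2.88% and 4.48%). Within slide 1, 2 were called for Old against Young (Psma8 and Psmc3ip, background 11.4%), 1 for Young-Abx against Young (Psma8, 7.87%) and 1 for Old-LP against Old (Psma8, 10.7%), with 0 for Old-LP against Young (0.066%) and Old against Young-Abx (0.0619%). All these counts read a gene at its brightest probe. A further probe of Psme4, well above background on all 12 arrays, met the rule within slide 1 for Old against Young DCs (0.77, limma adjusted p = 0.0294). Over all arrays without a block that probe gave 0.36 and the brightest Psme4 probe -0.09.

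Among the inducible genes, Psmb8, the beta5i subunit, read 13.97, 14.1 and 15.18 in the A, B and C arrays of Young DCs, 13.69, 14.01 and 15 in Young-Abx DCs, 13.84, 13.79 and 15.12 in Old DCs and 14.24, 14.12 and 15.15 in Old-LP DCs. Each C array stood about 1 unit above its own A and B, and the 4 groups overlapped. Old DCs differed from Young DCs by -0.17 on the log2 scale (95% interval -1.31 to 0.98), and Old-LP from Old DCs by 0.25 (-0.89 to 1.4).

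Psmb9, the beta1i subunit, read 13.3, 13.33 and 13.89 in Young DCs, 13.34, 13.47 and 13.68 in Young-Abx DCs, 13.36, 13.3 and 13.76 in Old DCs and 13.58, 13.53 and 14.26 in Old-LP DCs. For each letter the Old-LP array was the highest of the 4. The log2 difference of Old-LP from Old DCs was 0.32 (-0.3 to 0.94) and that of Old from Young DCs -0.04 (-0.66 to 0.58).

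Psmb10, the beta2i subunit, read 14, 13.94 and 12.77 in Young DCs, 13.76, 13.76 and 13.17 in Young-Abx DCs, 13.68, 13.75 and 12.35 in Old DCs and 13.83, 13.87 and 13.52 in Old-LP DCs. Here the C arrays were the low ones, and the Young A and B arrays were the highest of the 12. Old DCs differed from Young DCs by -0.31 (-1.3 to 0.68) and Old-LP from Old DCs by 0.48 (-0.5 to 1.47).

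Psme1, the alpha subunit of PA28, read 14.49, 14.51 and 15.8 in Young DCs, 14.35, 14.23 and 15.45 in Young-Abx DCs, 14.18, 14.17 and 15.95 in Old DCs and 14.55, 14.49 and 15.83 in Old-LP DCs. On slide 1 Old DCs were the lowest group and Old-LP DCs level with Young DCs, while the Old C array was the highest of all. Old DCs differed from Young DCs by -0.17 (-1.54 to 1.2) and Young-Abx from Young DCs by -0.26 (-1.62 to 1.11). The Psme2b probe, uncertain between gene and copy, read 13.46 to 13.72 on slide 1 and 14.91 to 15.18 on the C arrays, with group ranges that overlapped.

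**Figure D1:**
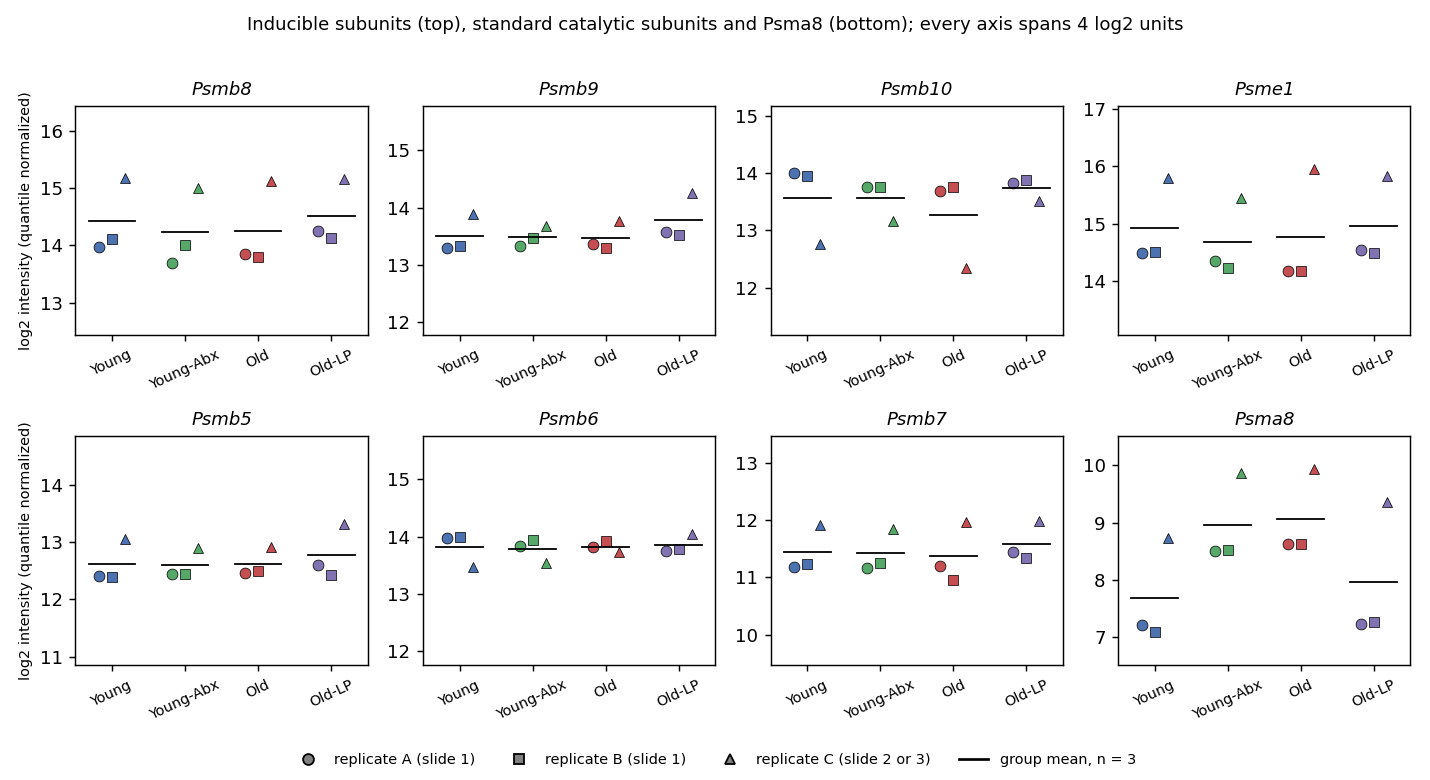
Log2 intensity (quantile normalized) of the inducible genes Psmb8, Psmb9, Psmb10 and Psme1, the standard cutting subunits Psmb5, Psmb6 and Psmb7, and Psma8 on each of the 12 arrays. Circles, squares and triangles are replicates A, B and C, the line is the mean of 3 arrays, and every panel spans 4 log2 units. The C arrays stand apart within each group, and only the Psma8 panel shows groups separated on slide 1 by more than 1 unit.

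Within slide 1, which leaves out the C arrays, the intervals were narrower. For Old against Young DCs Psme1 differed by -0.33 (-0.55 to -0.11, limma adjusted p = 0.0832), Psmb10 by -0.26 (adjusted p = 0.145) and Psmb8 by -0.22 (adjusted p = 0.447), while Psmb9 differed by 0.01 (adjusted p = 0.981). For Old-LP against Old DCs the limma differences were 0.35 for Psme1 (0.13 to 0.57, adjusted p = 0.0784), 0.36 for Psmb8 (adjusted p = 0.199), 0.23 for Psmb9 (adjusted p = 0.238) and 0.13 for Psmb10 (adjusted p = 0.448). None of these passed. The C arrays alone gave 0.15 for Psme1 in Old against Young DCs and -0.12 in Old-LP against Old DCs, opposite in sign to slide 1.

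The standard cutting subunits were read for comparison. Psmb5 (beta5) read 12.41, 12.39 and 13.06 in Young DCs, 12.45, 12.45 and 12.89 in Young-Abx DCs, 12.47, 12.49 and 12.92 in Old DCs and 12.61, 12.42 and 13.32 in Old-LP DCs. Psmb6 (beta1) read 13.97, 14 and 13.47 in Young DCs, 13.84, 13.95 and 13.55 in Young-Abx DCs, 13.82, 13.92 and 13.73 in Old DCs and 13.75, 13.79 and 14.05 in Old-LP DCs. Psmb7 (beta2) read 11.18, 11.24 and 11.92 in Young DCs, 11.17, 11.26 and 11.85 in Young-Abx DCs, 11.2, 10.96 and 11.96 in Old DCs and 11.44, 11.34 and 11.98 in Old-LP DCs. The groups overlapped for all 3 genes.

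As groups, the 4 inducible genes had a median log2 difference of -0.17 for Old against Young DCs (0 of 4 above 0), against -0.03 for the 31 constitutive 20S and 19S genes (11 of 31 above 0) and 0 for all genes. For Old-LP against Old DCs the median was 0.29 (4 of 4 above 0), against 0.13 (24 of 31) and 0.01 for all genes. For Young-Abx against Young DCs the medians were -0.1 and 0.03, for Old-LP against Young DCs 0.13 and 0.09, and for Old against Young-Abx DCs 0 and -0.07. The inducible median minus the constitutive one was -0.14 for Old against Young, 0.15 for Old-LP against Old, -0.13 for Young-Abx against Young, 0.04 for Old-LP against Young and 0.07 for Old against Young-Abx DCs. The array values described below varied between arrays of 1 group with a pooled SD of 0.22, which takes in the offset of the C arrays. Within the letters A, B and C, the inducible median minus the constitutive one was -0.15, -0.18 and -0.12 for Old against Young, -0.17, -0.16 and -0.27 for Young-Abx against Young and 0.22, 0.2 and -0.05 for Old-LP against Old DCs. By this median change of the genes it had 1 sign at every letter in the first pair of comparisons and not in Old-LP against Old. The difference of the array values described below had other signs. It was -0.04, -0.1 and -0.16 for Old against Young, -0.03, 0.05 and -0.4 for Young-Abx against Young and 0.23, 0.24 and 0.24 for Old-LP against Old DCs. The sign for Young-Abx against Young DCs thus depended on the summary. For the inducible median minus the constitutive one, slide 1 alone gave -0.16 for Old against Young, 0.21 for Old-LP against Old, -0.19 for Young-Abx against Young, 0.08 for Old-LP against Young and 0 for Old against Young-Abx DCs. Without the Young C array the value for Old against Young DCs was 0.13 and that for Old-LP against Young DCs 0.32, and without the Old C array the value for Old-LP against Old DCs was 0.36, against 0.09 without the Old-LP C array. The comparisons share arrays, since Young and Old DCs each enter several, and 4 genes read on the same arrays are not replicates.

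Array by array, the inducible median relative to the Young mean, minus the constitutive one, was -0.17, -0.14 and 0.34 in the A, B and C arrays of Young DCs and -0.21, -0.09 and -0.06 in Young-Abx DCs. It was -0.21, -0.24 and 0.18 in Old DCs and 0.01, 0 and 0.42 in Old-LP DCs. For each letter the Old-LP array was the highest of the 4, and it exceeded the Old array by 0.23, 0.24 and 0.24, a summary that differs at letter C from the median change of the genes above. The C arrays of Young and Old DCs exceeded the A and B arrays of Old-LP DCs, so the groups overlapped. Markers of other cells moved in the same comparisons on slide 1. Of 6 B cell markers, 5 were called lower in Old than Young DCs and 6 higher in Old-LP than Old DCs, of 5 T cell markers 4 and 4, of 7 mast cell markers 4 and 5, and of 9 neutrophil markers 7 and 7, with Camp called the other way in both. Of all genes 11.4% and 10.7% were called in these comparisons on slide 1. The summed log2 level of the B cell list was 12.54 to 12.7 in Young DCs, 11.86 to 12.36 in Young-Abx DCs, 11.62 to 14.05 in Old DCs and 12.54 to 12.81 in Old-LP DCs, with 5 of the 6 genes well above background throughout each group. For the T cell list it was 13.82 to 14.63, 13.54 to 14.56, 12.17 to 13.05 and 13.72 to 14.24 in the same order of groups, so Old DCs lay below the rest. For the neutrophil list it was 14.61 to 14.89, 13.81 to 14.43, 13.37 to 15.88 and 14.79 to 15.47, and for the mast cell list 14.45 to 15.54, 14.22 to 15.51, 13.7 to 15.91 and 14.64 to 15.3. Their part in the result was not tested.

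**Figure D2:**
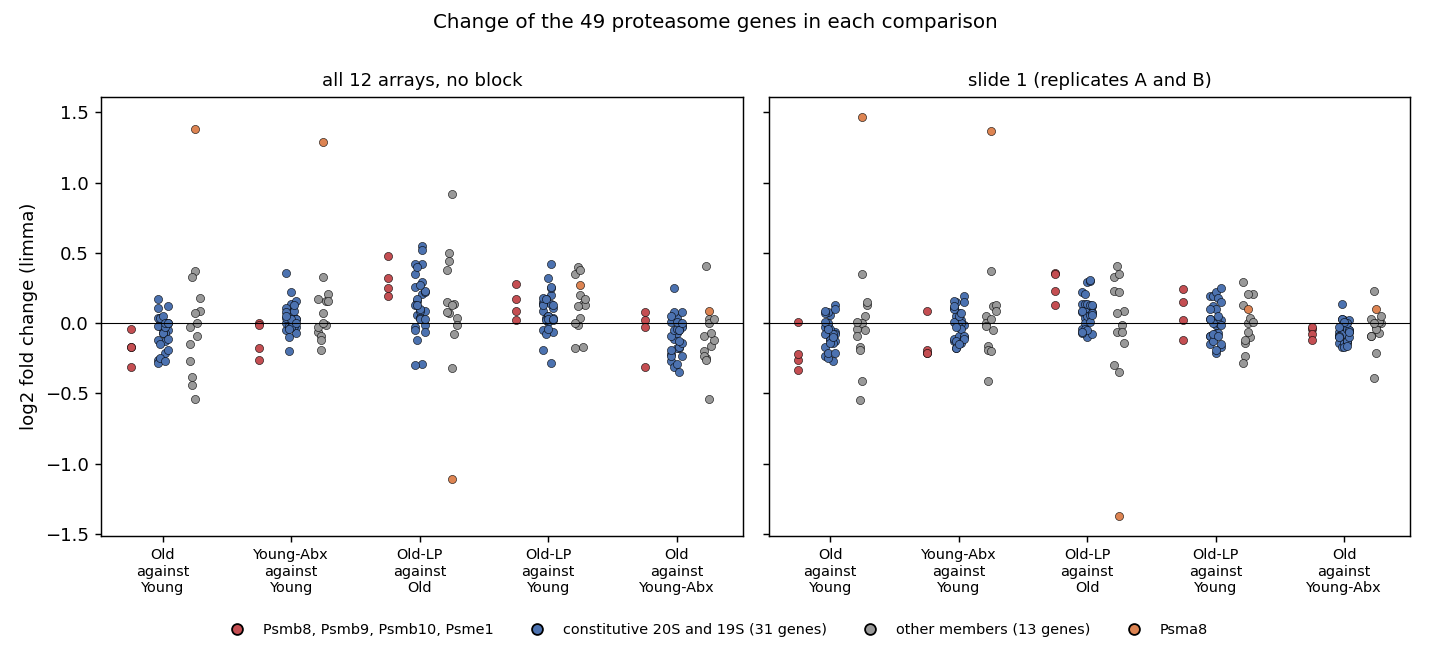
Log2 fold change (limma) of the 49 proteasome genes in the 5 comparisons, over all 12 arrays on the left and within slide 1 on the right. Each point is a gene, coloured by class, and Psma8 (1.38, 1.29 and -1.11 on the left) lies beyond the other genes in the first 3 comparisons.

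Differences of the constitutive rings and caps were small. The 7 alpha ring genes, Psma1 to Psma7, were below 0 in Old against Young DCs (0 of 7 above 0, median -0.21) and above 0 in Old-LP against Old DCs (7 of 7, median 0.35), and within slide 1 the medians were -0.07 and 0.21, with 0 called. Psma7 showed the pattern on its own, with 13.62, 13.61 and 12.74 in Young DCs, 13.42, 13.45 and 13.29 in Young-Abx DCs, 13.37, 13.36 and 12.5 in Old DCs and 13.49, 13.52 and 13.44 in Old-LP DCs. Its Old arrays lay below its Old-LP arrays without overlap, as in 10.5% of all genes, by 0.4 on average (-0.29 to 1.1). Most of this came from the C arrays, which alone gave 0.94, while on slide 1 these groups lay between 13.36 and 13.52. On the C arrays alone Psma2 (-0.23) and Psma3 (-0.45) were lower in Old-LP than Old DCs, and the rest of the alpha ring was higher. The 7 constitutive beta ring genes had medians of -0.04 in Old against Young and 0.16 in Old-LP against Old DCs. In the same order, the 6 ATPases of the 19S base had -0.11 and 0.14, and the 11 other 19S subunits 0.04 and 0.03.

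The largest constitutive differences rested on C arrays. Psmb2, a beta ring subunit without cutting activity, read 9.31, 9.37 and 8.63 in Young DCs, 9.34, 9.39 and 8.7 in Young-Abx DCs, 9.36, 9.12 and 8.45 in Old DCs and 9.28, 9.4 and 9.9 in Old-LP DCs. Its difference of 0.55 between Old-LP and Old DCs (-0.2 to 1.31) was 0.1 within slide 1. Psmc5, a 19S ATPase, read 11.13, 11.1 and 7.84 in Young DCs, 11.05, 11.1 and 8.18 in Young-Abx DCs, 11.06, 11.01 and 7.19 in Old DCs and 11.21, 11.11 and 8.49 in Old-LP DCs. Its 8 slide 1 values lay between 11.01 and 11.21, and its difference of 0.52 between Old-LP and Old DCs was 0.13 there. Psmd1, a large scaffold subunit of the 19S cap, read 12.43, 12.4 and 12.4 in Young DCs, 12.59, 12.55 and 13.17 in Young-Abx DCs, 12.5, 12.47 and 12.79 in Old DCs and 12.49, 12.4 and 12.73 in Old-LP DCs. Young DCs were lower than Young-Abx and Old DCs without overlap at this probe, by 0.36 (-0.15 to 0.87) and 0.17 (-0.34 to 0.69). The further probes of Psmd1, well above background on all 12 arrays, gave 0.11 and -0.01 for Young-Abx against Young DCs. For Old against Young DCs they gave 0.05 and -0.07.

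The other 19S genes named by the rule encode lid subunits. Psmd3 read 12.97, 12.95 and 13.97 in Young DCs, 12.73, 12.84 and 13.71 in Young-Abx DCs, 12.82, 13.02 and 14.18 in Old DCs and 12.88, 12.88 and 14.65 in Old-LP DCs. Psmd6 read 12.47, 12.38 and 13.47 in Young DCs, 12.56, 12.42 and 13.72 in Young-Abx DCs, 12.3, 12.35 and 13.67 in Old DCs and 12.33, 12.33 and 12.8 in Old-LP DCs. Psmd8 read 12.38, 12.45 and 13.71 in Young DCs, 12.52, 12.56 and 13.61 in Young-Abx DCs, 12.51, 12.5 and 13.84 in Old DCs and 12.45, 12.44 and 13.07 in Old-LP DCs. For Psmd6 and Psmd8 the Old-LP C array was the lowest C array, and the differences between Old-LP and Old DCs were -0.29 and -0.3. Further probes of Psmd6 gave 0.32 and 0.05 for Old-LP against Old DCs. Groups did not overlap for 1 gene in Old against Young DCs (Psmd1; 10.7% of all genes), 2 in Young-Abx against Young DCs (Psmd1 and Psmd9; 10.7%) and 3 in Old-LP against Old DCs (Psma6, Psma7 and Psmb4; 10.5%). They did not overlap for 0 in Old-LP against Young DCs (4.48%) and 3 in Old against Young-Abx DCs (Psma6, Psmc2 and Psmc6; 5.51%).

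Psma8, an alternative alpha subunit known from the testis, had the largest difference in Old against Young, Young-Abx against Young and Old-LP against Old DCs. It read 7.21, 7.09 and 8.74 in Young DCs, 8.51, 8.53 and 9.86 in Young-Abx DCs, 8.62, 8.62 and 9.94 in Old DCs and 7.23, 7.27 and 9.37 in Old-LP DCs. For each letter the Young-Abx and Old arrays were higher than the Young and Old-LP arrays, but the C arrays were higher than A and B in each group, so the ranges overlapped. Old DCs exceeded Young DCs by 1.38 on the log2 scale (-0.18 to 2.94, limma adjusted p = 0.949 without a block), Young-Abx exceeded Young DCs by 1.29 (-0.28 to 2.85, adjusted p = 1) and Old-LP differed from Old DCs by -1.11 (-2.67 to 0.46, adjusted p = 1). The adjusted p depended on the block. With replicate letters blocked, limma gave adjusted p = 0.0111 (0.94 to 1.82), 0.024 (0.85 to 1.73) and 0.0338 (-1.55 to -0.67). Within slide 1, from the A and B arrays alone, the differences were 1.47 (1.25 to 1.69), 1.37 and -1.37, with limma adjusted p = 0.000584, 0.00116 and 0.000855. Old and Young-Abx DCs thus stood at one level and Young and Old-LP DCs at a lower one on slide 1. The C arrays alone gave 1.2, 1.12 and -0.57, and Old and Young-Abx DCs differed by 0.09 over all arrays.

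A second Psma8 probe, well above background on 9 arrays, read 4.53, 4.94 and 3.71 in Young DCs, 6.01, 6.03 and 5.63 in Young-Abx DCs, 6.28, 5.52 and 1.73 in Old DCs and 4.74, 5.15 and 5.17 in Old-LP DCs. Over all arrays its differences were 0.12 for Old against Young, 1.5 for Young-Abx against Young and 0.51 for Old-LP against Old DCs, the last opposite in sign to the first probe, and none passed in limma (adjusted p = 1 for each without a block, and 0.975, 0.658 and 0.833 with letters blocked). The Old C array was the lowest value of this probe. Within slide 1 its differences had the signs of the first probe, 1.16, 1.29 and -0.95, and did not pass either (limma adjusted p = 0.0687, 0.0648 and 0.126). Platelet lineage markers moved with Psma8. Gp9, a platelet glycoprotein, read 9.17, 8.97 and 9.6 in Young DCs, 11.63, 11.62 and 11.31 in Young-Abx DCs, 11.83, 11.88 and 11.11 in Old DCs and 9.28, 9.19 and 10.38 in Old-LP DCs. Of 9 megakaryocyte and erythroid markers, Gp9 and Gp1bb were called higher in Old and in Young-Abx than in Young DCs over all arrays, and Gp1bb lower in Old-LP than Old DCs. Of all genes 0.904%, 0.475% and 0.512% were called in these comparisons. Within slide 1, 5 were called higher in Old and 4 in Young-Abx than Young DCs, and 5 lower in Old-LP than Old DCs. Hba-a1 was called the other way in each. Of all genes 11.4%, 7.87% and 10.7% were called there. The summed log2 level of this list was 15.76 to 16.17 in Young DCs, 16.34 to 16.82 in Young-Abx DCs, 16.28 to 16.84 in Old DCs and 15.87 to 16.29 in Old-LP DCs, with 5, 6, 6 and 6 of the 9 genes well above background throughout the group. Alas2, the erythroid haem synthesis gene, was not well above background on any array. The part of these cells in the result was not tested.

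Assembly factors were read next. Psmd10, the 19S assembly chaperone gankyrin, read 11.74, 11.54 and 12.11 in Young DCs, 12.05, 11.98 and 12.37 in Young-Abx DCs, 12.03, 11.95 and 12.51 in Old DCs and 11.64, 11.65 and 12.23 in Old-LP DCs. On slide 1 its Young and Old-LP arrays lay below its Young-Abx and Old arrays, in the order seen for Psma8 but with a smaller gap. The differences were 0.37 for Old against Young DCs (-0.24 to 0.97), 0.33 for Young-Abx against Young DCs (-0.27 to 0.94) and -0.32 for Old-LP against Old DCs (-0.93 to 0.28). Slide 1 gave 0.35, 0.37 and -0.35, with limma adjusted p = 0.111, 0.115 and 0.12.

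The 20S assembly chaperones are encoded by the Psmg genes. Psmg4 read 9.89, 9.96 and 7.58 in Young DCs, 9.66, 9.8 and 7.96 in Young-Abx DCs, 9.66, 9.38 and 6.77 in Old DCs and 9.76, 9.97 and 8.84 in Old-LP DCs. Psmg3 read 9.88, 9.81 and 9.44 in Young DCs, 9.66, 9.64 and 9.48 in Young-Abx DCs, 9.59, 9.72 and 8.68 in Old DCs and 9.76, 9.68 and 10.05 in Old-LP DCs. For both genes the Old C array was the lowest of the 12. Psmg4 differed by -0.54 between Old and Young DCs (-2.52 to 1.44) and by 0.92 between Old-LP and Old DCs (-1.06 to 2.9), and Psmg3 by -0.38 and 0.5. Within slide 1 these were -0.41 and 0.35 for Psmg4 and -0.19 and 0.07 for Psmg3. Without the Old C array the differences of Psmg4 were 0.38 and 0.01. Psmg2 read 9, 9.03 and 5.9 in Young DCs, 9.01, 8.99 and 5.83 in Young-Abx DCs, 8.92, 9.14 and 5.07 in Old DCs and 8.6, 8.87 and 5.92 in Old-LP DCs, with each C array far below its A and B.

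Of the activators outside PA28 alpha and beta, Psme3, which encodes the nuclear cap PA28 gamma, read 11.18, 11.22 and 8.66 in Young DCs, 10.63, 10.95 and 9.21 in Young-Abx DCs, 10.9, 11.15 and 9.99 in Old DCs and 10.98, 10.96 and 10.31 in Old-LP DCs. Its difference of 0.33 between Old and Young DCs (-1.24 to 1.9) was -0.17 within slide 1, where the Young arrays were the highest. Psmc3ip, a meiotic recombination cofactor and not a proteasome subunit, read 7.57, 7.34 and 6.45 in Young DCs, 7.33, 7.24 and 6.21 in Young-Abx DCs, 6.86, 6.93 and 6.22 in Old DCs and 7.3, 7.33 and 6.7 in Old-LP DCs. It was called lower in Old than Young DCs within slide 1 (-0.55, limma adjusted p = 0.0334), and over all arrays its difference was -0.44 (-1.35 to 0.46). A further Psmc3ip probe, well above background on 8 arrays, was not called within slide 1 (-0.36, limma adjusted p = 0.234). Over all arrays that probe gave -0.02.

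Psmb9 and Tap1 start from the same stretch of 225 bases, and their readings were set side by side. Tap1 read 12.58, 12.57 and 7.52 in Young DCs, 12.02, 11.9 and 7.15 in Young-Abx DCs, 11.77, 12.04 and 5.92 in Old DCs and 12.26, 12.3 and 8.6 in Old-LP DCs. Its C arrays lay at least 3 units below A and B, and on slide 1 its Young arrays were the highest. Over all arrays Old differed from Young DCs by -0.98 (-5.62 to 3.66), and without the Old C array by 1.01. Within slide 1 Tap1 was called lower in Old than Young DCs (-0.67, limma adjusted p = 0.0217) and in Young-Abx than Young DCs (-0.61, adjusted p = 0.0395). Psmb9 differed by 0.01 and 0.09 there, with neither passing. When letters were blocked, the limma adjusted p of Tap1 in Old against Young DCs was 0.374. The difference between the 2 genes was not tested.

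**Figure D3:**
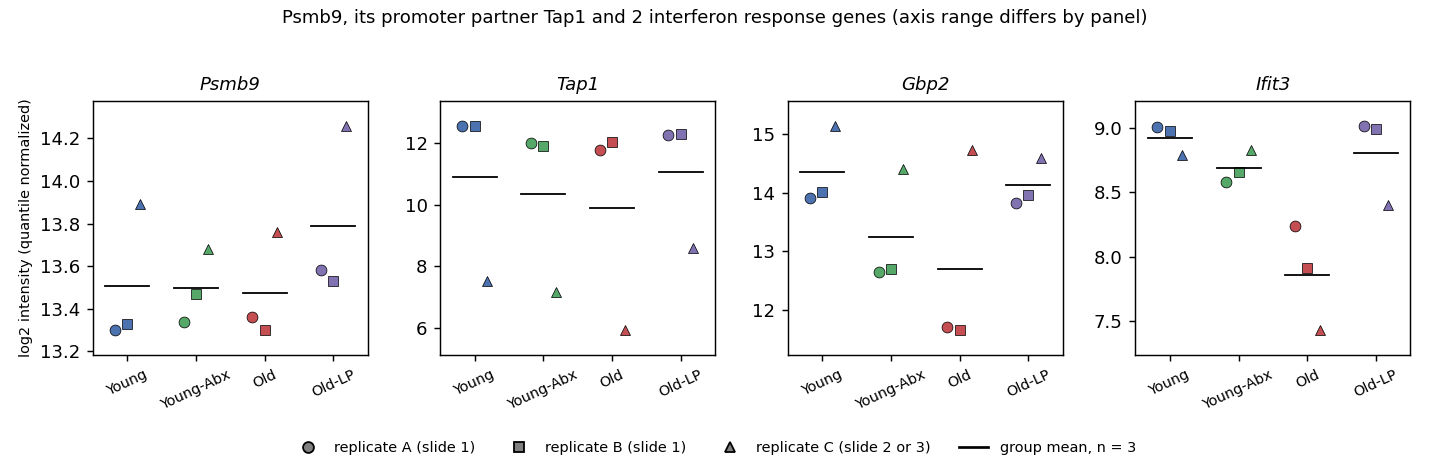
Log2 intensity (quantile normalized) of Psmb9, Tap1 and the interferon response genes Gbp2 and Ifit3 on each array, with symbols for replicates A, B and C and a line at the mean of 3 arrays. The axis range differs by panel. On slide 1 Gbp2 and Ifit3 were lowest in Old DCs, while Psmb9 stayed between 13.3 and 13.58.

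The genes around the immunoproteasome gave no call over all arrays. Of 11 MHC class I peptide loading genes, which include Tap1, B2m and H2-K1, 0 were called in any comparison by limma without a block, with 0 also at an unadjusted p of at most 0.05. The same held for 8 further proteasome factors, 3 genes of proteasome transcription control and 8 genes of ubiquitin supply. Pomp, the chaperone that closes the new 20S core, read 14.29, 14.23 and 14.16 in Young DCs, 13.96, 14.12 and 14.4 in Young-Abx DCs, 13.96, 13.96 and 14.01 in Old DCs and 14.23, 14.21 and 14.75 in Old-LP DCs. Its Old arrays lay below its Young and Old-LP arrays without overlap, and neither difference passed. Nfe2l2, which encodes the antioxidant response factor NRF2, was called higher in Young-Abx than Young DCs within slide 1 (0.51, limma adjusted p = 0.0288).

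Interferon response genes were called within slide 1 and not over all arrays without a block. Of 16 listed, 14 were measured, and 0 were called over all arrays by limma without a block, with 4, 0, 5, 0 and 4 at an unadjusted p of at most 0.05 in the 5 comparisons. The share of all genes at that limma p was 6.91%, 4.52%, 6.8%, 0.941% and 1.63%. Within slide 1, 6 were called lower in Old than Young DCs, among them Gbp2 (-2.28) and Cxcl10 (-2), where 11.4% of all genes were called. There 3 were called lower in Young-Abx than Young DCs (7.87% of all genes). Another 4 were called higher in Old-LP than Old DCs (10.7%), among them Gbp2 (2.22) and Cxcl10 (2.16). On the C arrays Cxcl10 read 8.13 in Young, 9.16 in Old and 8.73 in Old-LP DCs, so Old DCs were the highest of these there. Blocking the letters called Ifit3 (-1.07, limma adjusted p = 0.0446) and Gbp3 (-1.26, adjusted p = 0.0175) lower in Old than Young DCs and Gbp3 higher in Old-LP than Old DCs (1.38, adjusted p = 0.0158). With that block 3.06% and 2.38% of all genes were called. Gbp2, an interferon-induced GTPase, read 13.91, 14.01 and 15.15 in Young DCs, 12.64, 12.69 and 14.4 in Young-Abx DCs, 11.71, 11.65 and 14.74 in Old DCs and 13.83, 13.97 and 14.59 in Old-LP DCs. Its slide 1 arrays separated Old DCs from the rest by nearly 1 unit or more, and its C arrays did not. Across the inducible subunits the largest slide 1 differences in the same comparisons were -0.33 and 0.36.

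The C arrays shifted most proteasome genes the same way in every group. Relative to the mean of A and B, 39 of the 49 genes had a C array offset of 1 sign in all 4 groups, 27 upwards and 12 downwards, where 59.4% of all genes had 1 sign. The lowest offsets were those of Psmg2 (-3.96 to -2.81 over the groups) and Psmc5 (-3.84 to -2.67), and the highest of genes with a narrow range were those of Psma5 (1.54 to 1.68) and Psmb3 (1.31 to 1.73). A and B arrays of a group differed by a median of 0.06 over the genes, and by 0.75 at most. Of the 26 further probes for these genes, 9 shifted in the opposite direction to the main probe in all 4 groups, such as the further probe of Psma3 (-5.23 to -4.17), so for those genes the offset differed between probes.

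**Figure D4:**
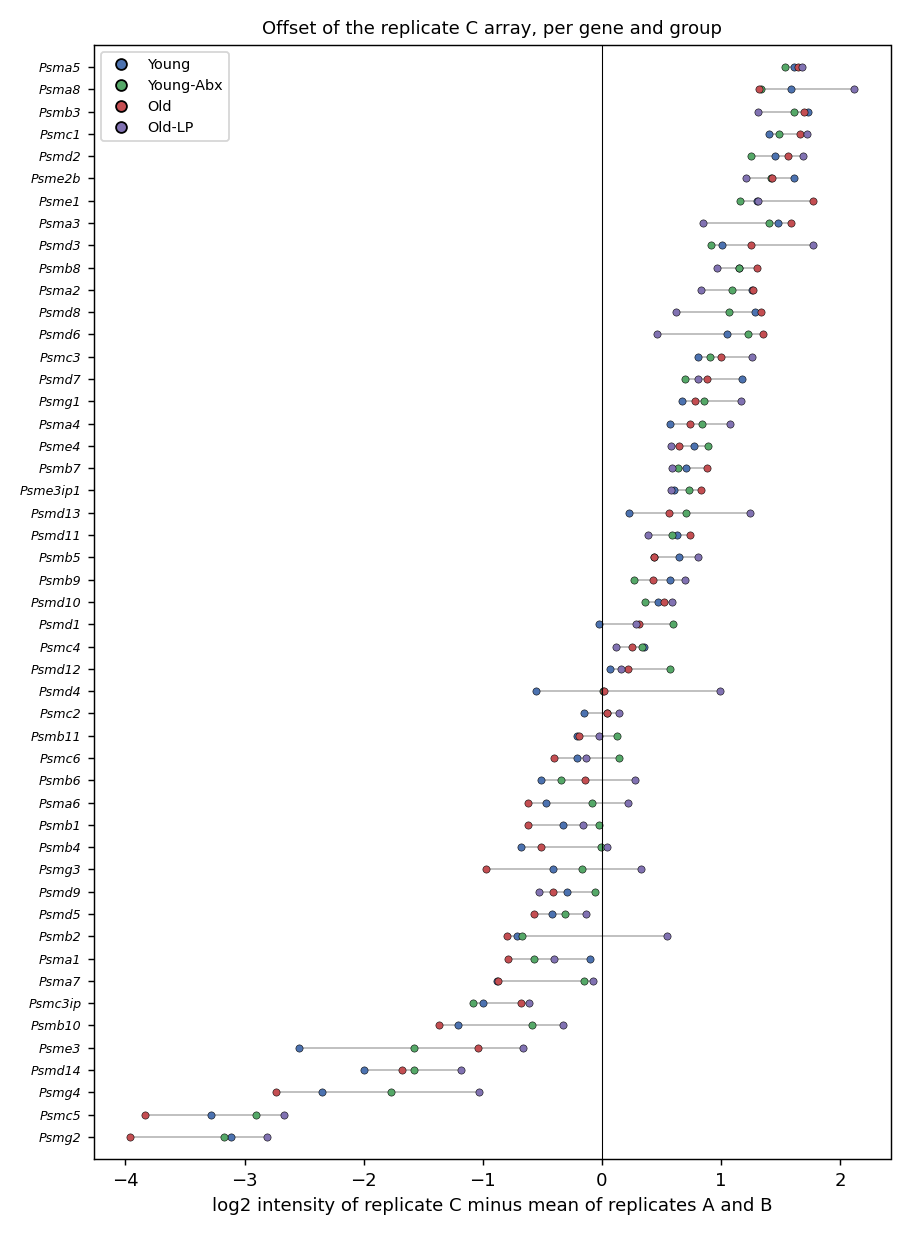
Offset of the replicate C array from the mean of replicates A and B (log2 intensity), for each of the 49 proteasome genes in each of the 4 groups, ordered by the mean offset. The points of Psmg2 lie between -3.96 and -2.81 and those of Psma5 between 1.54 and 1.68.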

How the data were processed

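Single-colour Agilent mouse arrays were read for 12 samples of LPS-stimulated DCs, grouped by the sample labels. The authors deposited the spot intensity of every array, background-subtracted and detrended by Agilent Feature Extraction (version 10.5 in the submitters' processing notes, 12.1.1.1 in the file header) and not normalized between arrays, and a table of log2 values for 46302 probes that follows quantile-normalized log2 median signals. There were 0 columns of other samples.

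The intensity of 59305 non-control spots was used. Outlier readings (1068) were set to missing, log2 values were quantile normalized and spots averaged to 56605 probes. Accessions named 35405 probes (24232 symbols). Group means over 12 arrays were fitted in limma 3.58.1 (lmFit, eBayes) under R 4.3.3. A gene was called at a two-sided Benjamini-Hochberg adjusted p of at most 0.05, over all probes, with a log2 fold change of 0.5 or more in either direction. Intervals are 95%. The arrays' number limits the precision. The steps were tested on simulated data.

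Values per array were given, by rule, for the inducible genes, their standard counterparts, every member called in any fit, and the 3 largest rises and falls of each comparison among members well above background throughout at least 1 of its groups. Pathway genes shown beside them, and the list of genes in the figures, were chosen after their values were seen. The members and lists were chosen with earlier results of these data known. A list of transcriptional regulators is not reported here.

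Pairing by replicate letter was checked by correlating what remained after the group means were removed. Arrays of 1 letter correlated across groups at 0.415 to 0.711, and no label says that it marks a shared day. A with B also gave 0.449 to 0.57, and C with A or B -0.659 to -0.466. The check thus only sets C apart from A and B. It cannot show that A pairs with A rather than with B, so the pairing by letter remains an assumption.

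The alternatives were a 75th percentile shift, normexp with an offset of 50 on the median signal, the authors' log2 table, a filter on dim probes, the mean over a gene's probes, a block for the letter or for the slide, slide 1 or the C arrays alone, the compared groups alone, an intensity trend, outlier spots kept, unadjusted p, each array left out, and Psme2b counted as inducible (added after seeing the data). Sequences came from RefSeq tables of GRCm38.p6. The array headers name mm9, so no other coordinates were given.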

Additional observations from a re-analysis of the deposited data

How the results depend on the processing

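The count of called proteasome genes was 0 in each comparison under every setting that gave a count except 3. The C arrays alone, with 1 array per group, allow no test, and counting Psme2b as inducible bears on the median alone. The replicate block and the slide block each called 1, 1 and 1 for Old against Young, Young-Abx against Young and Old-LP against Old DCs, and slide 1 alone called 2, 1 and 1. Leaving out any single array gave 0 in each. The replicate block changed the call of no proteasome gene other than Psma8. The inducible minus constitutive median moved by less than 0.22 under every setting that kept all arrays, including Psme2b counted as inducible, which was added after seeing the data. That limit is the pooled SD of the array values and not of the median change of the genes. It is larger in size than each of the 5 medians over all 12 arrays without a block. Such a median could therefore reach 0 or turn in sign within it, so the limit cannot decide whether they are stable. With an array left out the inducible minus constitutive median ranged from -0.24 to 0.13 for Old against Young and from 0 to 0.32 for Old-LP against Young DCs, both highest values coming without the Young C array. For Young-Abx against Young DCs the range was -0.24 to 0.02, for Old-LP against Old 0.09 to 0.36, the highest without the Old C array, and for Old against Young-Abx -0.12 to 0.15.

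Named genes changed sign as follows, with values that did not pass. Psmb9 in Old against Young was 0.01 with the authors' table, 0.01 with normexp and 0.01 on slide 1, and in Young-Abx against Young 0.02 with normexp and 0.09 on slide 1. Psme3 in Old against Young was -0.17 on slide 1 and -0.07 with the slide block, and in Old-LP against Young -0.23 and -0.01. On slide 1, Old-LP against Young gave 0 for Psmb2, 0.03 for Psmd8 and -0.06 for Psmg4. The C arrays alone gave 0.41 for Psmb10 in Young-Abx against Young, 0.15 and -0.12 for Psme1 in Old against Young and Old-LP against Old, and 0.01 for Psmg2 in Old-LP against Young. The mean over probes gave -0.64 for Psma8 in Old against Young-Abx. The cause was not tested.

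With each array left out, the ranges of genes that changed sign were, for Old against Young, -0.6 to 0.22 (Psmb8), -0.18 to 0.15 (Psmb9), -0.71 to 0.15 (Psmb10), -0.76 to 0.26 (Psme1), -0.52 to 0.76 (Psme3), -1.32 to 0.38 (Psmg4) and -2.66 to 1.01 (Tap1). For Young-Abx against Young they were -0.57 to 0.2 (Psmb8), -0.11 to 0.18 (Psmb9), -0.41 to 0.21 (Psmb10), -0.64 to 0.18 (Psme1), -0.51 to 0.13 (Psmd3), -0.53 to 0.17 (Psmc3ip) and -2.22 to 1.07 (Tap1). For Old-LP against Old they were -0.07 to 0.69 (Psmb8), -0.25 to 0.78 (Psme1), -0.77 to 1.41 (Psmc5), -0.53 to 0.15 (Psmd8) and -0.85 to 2.37 (Tap1). For Old-LP against Young they were -0.45 to 0.83 (Psme3), -0.4 to 0.79 (Psmg4), -0.48 to 0.07 (Psmd6), -0.43 to 0.24 (Psmd8) and -1.22 to 0.75 (Psmg2). For Old against Young-Abx they were -0.11 to 0.76 (Psme3), -0.17 to 0.55 (Psmd3), -0.35 to 0.54 (Psma8), -1.13 to 0.38 (Psmg4) and -1.32 to 0.93 (Psmc5).

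The limits are the 3 arrays per group, the lower signal of the C arrays, and the slides, of which slides 2 and 3 each hold a single array per group. Intervals over all arrays without a block reached more than 1 unit for Psmb8, Psmb10 and Psme1, so that fit could not tell smaller differences from 0. Within slide 1 the intervals were narrower but leave out the C arrays.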
